A study of Ambystoma mexicanum with 15 samples.

Results

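HEY1 and the core genes of the Notch pathway were followed in axolotl (Ambystoma mexicanum) spinal cord after injury and after injury with ivermectin. The members were every probe set of the array annotated as HEY1, NOTCH1 to NOTCH4, HES1, HES5, JAG1, JAG2, DLL1 or DLL4. Of these 11 symbols, 6 had a probe set, and together they had 7 of the 20035 probe sets tested. DLL1, JAG1, JAG2, HES1 and HEY1 had 1 probe set each and NOTCH1 had 2. NOTCH2, NOTCH3, NOTCH4, HES5 and DLL4 had no probe set with that name and are not analysed here.

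Notch receptors are cell surface proteins that are activated by Delta and Jagged ligands on neighbouring cells. Activation releases the intracellular part of the receptor by cleavage, and this part enters the nucleus, binds RBPJ and switches on target genes. The best known targets are HES and HEY genes, which encode basic helix-loop-helix repressors. In the vertebrate nervous system the pathway is known for keeping neural progenitors, such as the ependymoglial cells that line the central canal, from differentiating, and HEY1 is also known from developing blood vessels, where Notch signalling induces it.

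All animals were 1 month old white axolotls of 2 to 3 cm. Of 5 groups, the first received ivermectin, a drug that opens ligand-gated chloride channels, by injection into the central canal directly before a piece of the cord was removed, and the injured area was collected 1 day later. The other groups were uninjured cord, which the labels call mature, and cord at 1, 3 and 7 days after injury. Each group had 3 arrays, and each array was hybridised with RNA from tissue pooled from 10 animals. The labels describe water as the vehicle but do not state whether the 1 day group without ivermectin received it, whether the uninjured animals were injected, or how much tissue around the cord was taken. Each value is a log2 expression level, so that a difference of 1 is a 2-fold difference, and each difference is given with its SE from a limma fit over all 15 arrays. A probe set is called changed at an adjusted p under 0.05 (Benjamini-Hochberg over all 20035 probe sets). The spread behind each p is that between arrays of a group, drawn by limma toward a spread common to all probe sets. It is not the spread between single animals.

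Arrays of the ivermectin group lay close to uninjured arrays over all probe sets (r = 0.996 to 0.997), against 0.967 to 0.968 for ivermectin with 1 day arrays and 0.997 to 0.999 within groups. Poly-A control RNA, which is added to the RNA before labelling, averaged 7.43 in ivermectin arrays, and 7.54 in uninjured, 8.08 in 1 day, 8.33 in 3 day and 7.94 in 7 day arrays. No array of the injured groups without ivermectin overlapped uninjured or ivermectin arrays on it, so an effect of sample handling on these comparisons cannot be told apart from the groups. The ependymoglial marker GFAP averaged 9.97 in uninjured arrays. FOXJ1 of ciliated ependymal cells averaged 4.29 there and the synaptic gene SYT1 3.14. These genes were picked outside the naming rule given at the end and do not stand for their cell types. In the same arrays the mean over 12 neuronal genes was 6.38, over 9 ependymoglial genes 8.65 and over 15 skeletal muscle genes 10.67. Levels of different probe sets are not on a common scale, so these values do not give the share of any cell type. No detection call was given, so low values were not shown to be above background. Because the tissue is a mixture, fewer cells of a type and less RNA per cell cannot be told apart in any value that follows.

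After injury, HEY1 rose at all 3 times, while HES1, the other target gene among the members, fell at all 3. The ligands moved apart. DLL1 and JAG2 were lowest at 1 day, and JAG1 was highest at 3 days. With ivermectin, HEY1, HES1, DLL1 and JAG2 lay near their uninjured levels, and all of them differed from the 1 day group. Of the 7 probe sets, 6 were called changed at 1 day against uninjured (3 higher, 3 lower), 6 at 3 days (4 higher, 2 lower) and 4 at 7 days (3 higher, 1 lower). Over all probe sets tested, 53.8% were called at 1 day, 60.0% at 3 days and 57.7% at 7 days. With ivermectin against 1 day 5 members were called (3 higher, 2 lower), against 55.0% of all probe sets. With ivermectin against uninjured 1 member was called, against 6.95% of all. A count of called members near such a background is no result about these genes.

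**Figure D1:**
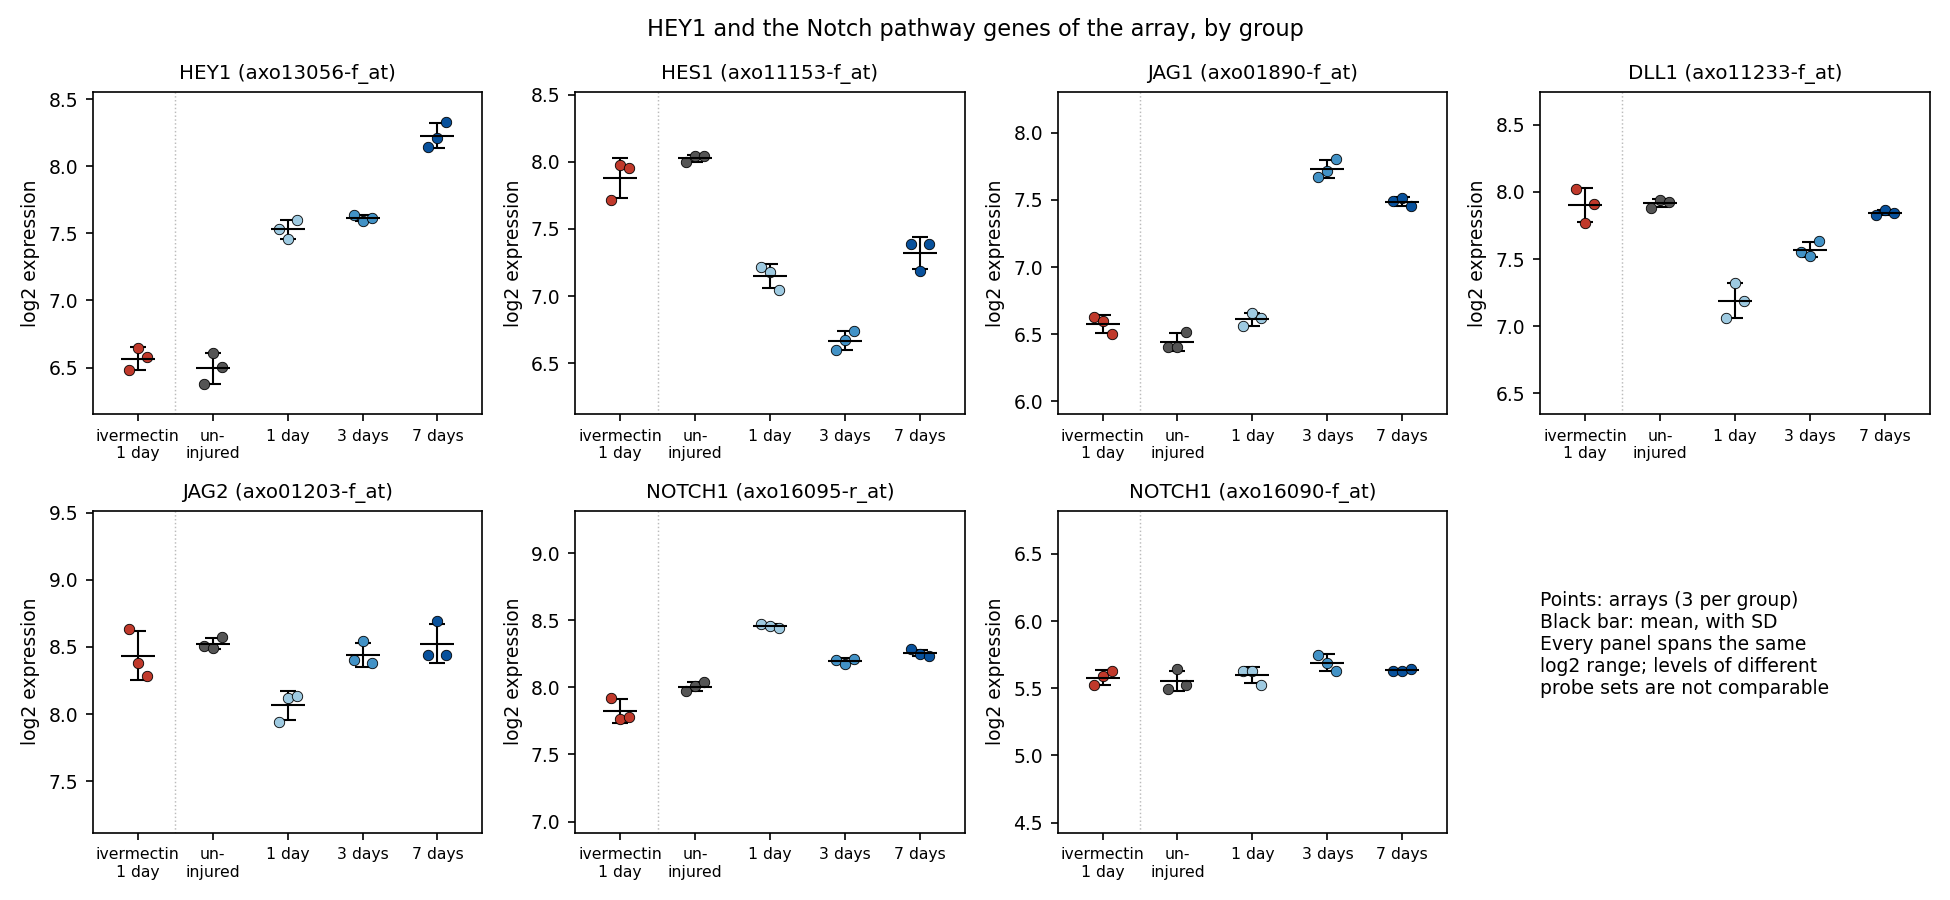
Log2 expression of the 7 member probe sets (vertical axes, all with the same span) by group, with 1 point per array and the group mean with SD in black. HEY1 lies between 7.46 and 8.33 in injured cord without ivermectin, against 6.38 to 6.64 in ivermectin and uninjured arrays, while HES1 lies between 6.60 and 7.39 in injured cord without ivermectin, against 7.71 to 8.04 in ivermectin and uninjured arrays.

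Among the ligands, DLL1 encodes a Delta ligand that neural progenitors and newborn neurons present to their neighbours. DLL1 (axo11233-f_at) read 8.03, 7.77 and 7.91 in ivermectin arrays. It read 7.88, 7.94 and 7.92 in uninjured arrays, 7.06, 7.32 and 7.19 at 1 day, 7.55, 7.53 and 7.64 at 3 days and 7.83, 7.87 and 7.84 at 7 days. All 1 day arrays were below every other array, and the 7 day arrays lay just under the uninjured ones. DLL1 fell by 0.73 on the log2 scale at 1 day (SE 0.07, 1.65-fold lower, adjusted p = 4.07e-07) and by 0.34 at 3 days (adjusted p = 0.000568). The fall at 3 days is smaller than the difference of 0.789 in poly-A control RNA between the same groups, whose part in it was not tested. At 7 days DLL1 differed from uninjured by -0.07 ± 0.07 (adjusted p = 0.430, 95% interval -0.22 to 0.08). It was higher at 3 days than at 1 day by 0.38 and at 7 days than at 3 days by 0.28, both called (adjusted p = 0.000420 and 0.00533).

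JAG1 encodes a Jagged ligand with roles in blood vessels and in neural progenitors. JAG1 (axo01890-f_at) read 6.63, 6.60 and 6.50 in ivermectin arrays. It read 6.41, 6.40 and 6.52 in uninjured arrays, 6.56, 6.66 and 6.62 at 1 day, 7.67, 7.72 and 7.80 at 3 days and 7.49, 7.52 and 7.45 at 7 days. The 3 and 7 day arrays lay far above all others, and the 1 day arrays were above the uninjured ones by a narrow margin. JAG1 rose by 1.29 ± 0.05 at 3 days (2.44-fold, adjusted p = 2.05e-11) and by 1.04 ± 0.05 at 7 days (2.06-fold, adjusted p = 2.44e-10). At 1 day the difference was 0.17 ± 0.05 (adjusted p = 0.0165). That call was lost without uninjured replicate 1, uninjured replicate 2 or 1 day replicate 2, with adjusted p = 0.0572, 0.0624 and 0.0651 in limma. Between 1 and 3 days JAG1 rose by 1.12 ± 0.05 (adjusted p = 2.64e-10), and it was lower at 7 than at 3 days by 0.24 on the log2 scale (adjusted p = 0.00203). The 1 day rise is smaller than the difference of 0.546 in poly-A control RNA between the same groups, whose part in it was not tested.

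JAG2 encodes the second Jagged ligand. JAG2 (axo01203-f_at) read 8.64, 8.38 and 8.29 in ivermectin arrays. It read 8.50, 8.50 and 8.57 in uninjured arrays, 7.94, 8.12 and 8.13 at 1 day, 8.40, 8.54 and 8.38 at 3 days and 8.44, 8.69 and 8.44 at 7 days. Only the 1 day arrays stood apart from the rest. JAG2 fell by 0.46 at 1 day (SE 0.09, adjusted p = 0.000588). This is smaller than the difference of 0.546 in poly-A control RNA between the same groups, whose part in it was not tested. The difference of JAG2 from uninjured was -0.08 ± 0.09 at 3 days (adjusted p = 0.458) and -0.00 ± 0.09 at 7 days (adjusted p = 0.992, 95% interval -0.20 to 0.20). It was higher at 3 days than at 1 day by 0.38 ± 0.09 (adjusted p = 0.00402), and 7 and 3 days differed by 0.08 ± 0.09 (adjusted p = 0.521).

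NOTCH1 encodes the receptor, and its probe sets gave different pictures. The brighter one, axo16095-r_at, read 7.92, 7.76 and 7.78 in ivermectin arrays, and 7.97, 8.01 and 8.04 in uninjured, 8.47, 8.46 and 8.44 in 1 day, 8.20, 8.18 and 8.21 in 3 day and 8.28, 8.25 and 8.24 in 7 day arrays. Its group mean was highest at 1 day and lowest with ivermectin. Arrays of different groups did not overlap, which is common with 3 arrays a group. This held for 60.4% of all probe sets with ivermectin against 1 day and for 23.1% with ivermectin against uninjured. Against uninjured, axo16095-r_at rose by 0.45 ± 0.05 at 1 day (1.37-fold, adjusted p = 1.15e-06), 0.19 ± 0.05 at 3 days (adjusted p = 0.00292) and 0.25 ± 0.05 at 7 days (adjusted p = 0.000344). It was lower at 3 days than at 1 day by 0.26 on the log2 scale (adjusted p = 0.000432). At 7 against 3 days it differed by 0.06 ± 0.05 (adjusted p = 0.364), and by -0.014 under cyclic loess. Poly-A control RNA differed by 0.546, 0.789 and 0.400 in the same comparisons with uninjured, more than this probe set in each, and its part was not tested.

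The dimmer probe set of NOTCH1, axo16090-f_at, read between 5.50 and 5.75 in all arrays. Its lowest group mean was 5.56 in uninjured arrays and its highest 5.69 at 3 days. It did not pass a moderated F test for any difference among the groups (adjusted p = 0.187), which the other 6 probe sets passed (74.4% of all probe sets did). Against uninjured it was called only at 3 days (0.14 ± 0.05, adjusted p = 0.0409), with overlapping arrays, and 9 of 22 alternative settings lost the call (adjusted p up to 0.164, and 0.0516 with a replicate block). It differed by 0.04 ± 0.05 at 1 day (adjusted p = 0.565) and 0.08 ± 0.05 at 7 days (adjusted p = 0.229). At 3 against 1 day the difference was 0.10 ± 0.05 (adjusted p = 0.181) and at 7 against 3 days -0.06 ± 0.05 (adjusted p = 0.439). Its 95% interval at 1 day, -0.07 to 0.15, lay below that of axo16095-r_at, 0.35 to 0.55, and the difference between the probe sets was not tested. The same value to the last deposited digit stood in 5 of its 15 arrays. In 33.7% of all probe sets some value stood in more than 1 array, and the share with 5 equal values was not computed. Among the other members only HES1 had a repeat, in 2 arrays.

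**Figure D2:**
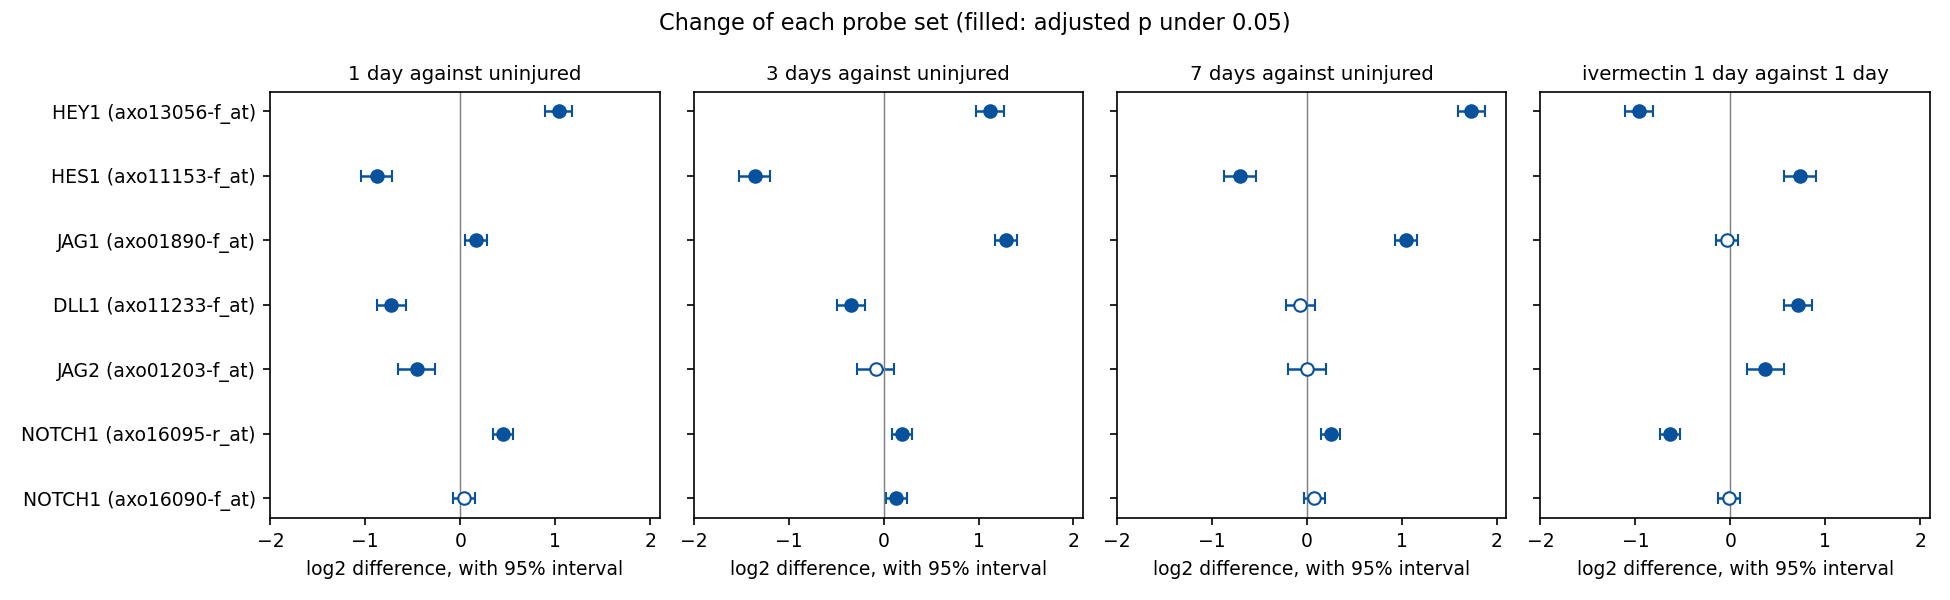
Log2 difference with its 95% interval (horizontal axes) for each member probe set in 4 comparisons, filled where the adjusted p is under 0.05. HEY1 and HES1 lie on opposite sides of 0 in every panel, and JAG1 lies beyond 1 at 3 and 7 days only.

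HES1 encodes the repressor that holds back proneural genes in neural progenitors. HES1 (axo11153-f_at) read 7.71, 7.97 and 7.95 in ivermectin arrays. It read 8.00, 8.04 and 8.04 in uninjured arrays, 7.22, 7.18 and 7.05 at 1 day, 6.60, 6.67 and 6.74 at 3 days and 7.39, 7.19 and 7.39 at 7 days. All 9 arrays of injured cord without ivermectin were below all uninjured and ivermectin arrays, with 3 days lowest. Against uninjured, HES1 fell by 0.88 at 1 day (SE 0.08, 1.84-fold lower, adjusted p = 1.36e-07), by 1.36 at 3 days (2.56-fold lower, adjusted p = 6.33e-10) and by 0.71 at 7 days (1.63-fold lower, adjusted p = 1.14e-06). It fell again between 1 and 3 days by 0.48 (adjusted p = 0.000130) and was higher at 7 than at 3 days by 0.65 ± 0.08 (adjusted p = 7.61e-06). The 7 and 1 day levels differed by 0.17 ± 0.08 (adjusted p = 0.0866), with arrays that overlapped.

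HEY1 encodes the other repressor of this family among the members. HEY1 (axo13056-f_at) read 6.48, 6.64 and 6.58 in ivermectin arrays. It read 6.38, 6.61 and 6.50 in uninjured arrays, 7.53, 7.46 and 7.60 at 1 day, 7.63, 7.59 and 7.61 at 3 days and 8.14, 8.21 and 8.33 at 7 days. The 7 day arrays were above all others, the 1 and 3 day arrays formed a middle level with overlapping values, and ivermectin and uninjured arrays shared the lowest level. HEY1 rose by 1.04 ± 0.07 at 1 day (2.05-fold, adjusted p = 5.12e-09), by 1.12 ± 0.07 at 3 days (2.17-fold, adjusted p = 1.31e-09) and by 1.73 ± 0.07 at 7 days (3.32-fold, adjusted p = 9.11e-12). Poly-A control RNA differed by 0.546, 0.789 and 0.400 in the same comparisons, and its part in the rise of HEY1 was not tested. The span of its group means, 1.73, was wider than that of 94.5% of all probe sets, whose median span was 0.45.

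The 5 levels of HEY1, from high to low, were 8.23 ± 0.09 (SD, n = 3) at 7 days, 7.61 ± 0.02 at 3 days, 7.53 ± 0.07 at 1 day, 6.57 ± 0.08 with ivermectin and 6.50 ± 0.11 in uninjured cord. The 7 day level was above the 3 day level by 0.61 ± 0.07 (adjusted p = 3.80e-06). Its neighbours at 3 days and 1 day were not told apart (0.08 ± 0.07, adjusted p = 0.362, 95% interval -0.06 to 0.23). The 1 day level was above the ivermectin level, which lay 0.96 lower (adjusted p = 1.01e-08). Ivermectin and uninjured levels were not told apart either (0.07 ± 0.07, adjusted p = 0.648, 95% interval -0.07 to 0.22), so an effect of up to 0.22 on the log2 scale remains possible at this number of arrays.

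HEY1 minus HES1 in the same array, on the log2 scale, shows both genes together. The pair was chosen because these genes were seen to move in opposite directions, so the measure is a description, given with no test, and each of its group differences is the difference of HEY1 minus that of HES1 as given above. A shift common to an array cancels in it, and only differences between groups can be read, since levels of different probe sets are not on a common scale. It was -1.31 ± 0.07 (SD, n = 3) with ivermectin, -1.53 ± 0.09 in uninjured arrays, 0.38 ± 0.15 at 1 day, 0.95 ± 0.08 at 3 days and 0.91 ± 0.14 at 7 days. Against uninjured arrays it differed by 1.92 at 1 day, 2.48 at 3 days and 2.44 at 7 days, and with ivermectin against 1 day by -1.70, with no overlap between arrays. With ivermectin it was 0.22 above uninjured, also with no overlap, as for 23.1% of all single probe sets there. Neither HEY1 nor HES1 was called in that comparison (limma, adjusted p = 0.648 and 0.330). Since the pair was picked for moving apart, the lack of overlap is no support for a difference. Between 3 days and 1 day the measure differed by 0.56, and between 7 and 3 days by -0.04, with overlapping arrays, although both genes were higher at 7 days.

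**Figure D3:**
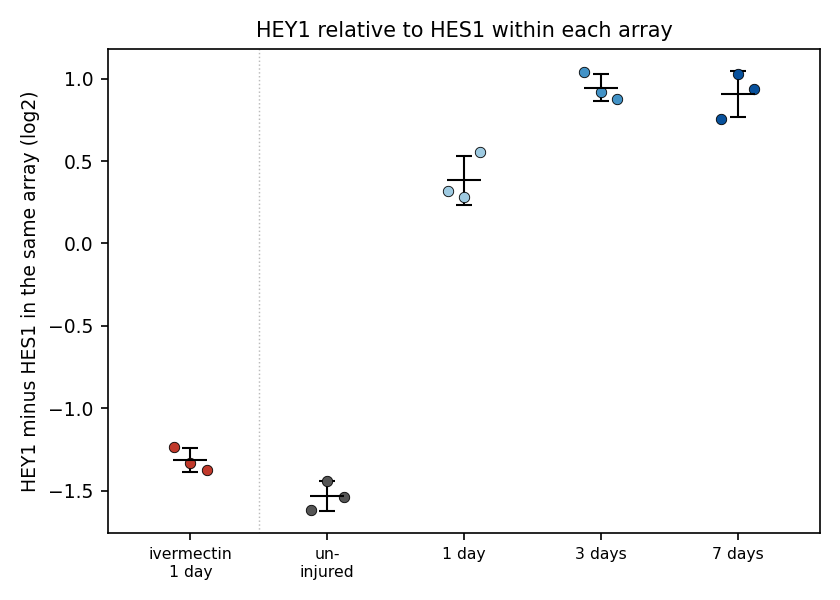
HEY1 minus HES1 in the same array (log2, vertical axis) by group, with 1 point per array and the group mean with SD. Injured cord without ivermectin lies between 0.28 and 1.04, against -1.38 to -1.23 with ivermectin and -1.62 to -1.44 in uninjured arrays.

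The comparison of ivermectin with the 1 day group sets injured cord with the drug beside injured cord without it. The labels do not state whether the 1 day group was injected, so drug and injection cannot be told apart. HEY1 fell by 0.96 on the log2 scale with ivermectin (SE 0.07, 1.95-fold lower) and NOTCH1 axo16095-r_at by 0.63 (1.55-fold lower, adjusted p = 2.42e-08). HES1 was higher by 0.73 ± 0.08 (1.66-fold, adjusted p = 9.10e-07), DLL1 by 0.71 ± 0.07 (1.64-fold, adjusted p = 4.57e-07) and JAG2 by 0.37 ± 0.09 (1.29-fold, adjusted p = 0.00306). Arrays did not overlap in these 5 cases, as for 60.4% of all probe sets in this comparison. JAG1 differed by -0.03 ± 0.05 (adjusted p = 0.630) and NOTCH1 axo16090-f_at by -0.02 ± 0.05 (adjusted p = 0.831). Poly-A control RNA was lower with ivermectin by a difference of -0.648, about the size of the NOTCH1 change and more than that of JAG2. The changes of DLL1 (0.71) and HES1 (0.73) were only a little larger in size. The part of poly-A control RNA differences in these changes was not tested.

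Set against uninjured cord, the ivermectin group differed in NOTCH1 axo16095-r_at alone, by -0.18 ± 0.05 (adjusted p = 0.0329). That call was lost in 6 of 22 alternative settings, among them the fit of these groups alone (adjusted p = 0.160), the replicate block (adjusted p = 0.0507) and the fits without ivermectin replicate 2 (adjusted p = 0.140) or 3 (adjusted p = 0.120). HES1 differed by -0.15 ± 0.08 (adjusted p = 0.330, 95% interval -0.31 to 0.02), and by -0.19 to -0.062 with an array left out, the smallest being without ivermectin replicate 1. DLL1 differed by -0.01 ± 0.07 (adjusted p = 0.952), JAG2 by -0.09 ± 0.09 (adjusted p = 0.684), JAG1 by 0.13 ± 0.05 (adjusted p = 0.182) and NOTCH1 axo16090-f_at by 0.02 ± 0.05 (adjusted p = 0.875). Arrays did not overlap for HES1 and NOTCH1 axo16095-r_at, against 23.1% of all probe sets. The comparisons with uninjured cord share the uninjured arrays and both comparisons at 1 day share the 1 day arrays, so they are not independent of each other.

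Between later times, 5 members were called at 3 days against 1 day (3 higher, 2 lower; 40.6% of all probe sets), namely JAG1, DLL1 and JAG2 upward and HES1 and NOTCH1 axo16095-r_at downward. At 7 days against 3 days 4 were called (3 higher, 1 lower; 40.8% of all), with HES1, HEY1 and DLL1 higher and JAG1 lower. HEY1 was the sole member that was called higher than uninjured by more than 1 on the log2 scale at 1 day. Its difference there was 1.04, with an interval from 0.89 to 1.18 that includes 1. Alternative settings gave 0.98 to 1.10, so its place above 1 depended on the setting. Of all probe sets, 93.5% had a smaller change in this comparison, so a change of this size is not particular to HEY1.

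A wider list of 91 other pathway genes, in 6 roles, had 58 measured genes, each represented by its brightest probe set. At 1 day 13 rose and 16 fell, at 3 days 20 rose and 19 fell, and at 7 days 15 rose and 17 fell. In the ivermectin group 15 were higher and 13 lower than at 1 day. Among all named genes 55.6% were called at 1 day, 61.9% at 3 days, 60.3% at 7 days and 57.5% with ivermectin against 1 day. The median difference of the list was -0.01, -0.02, 0.02 and 0.02 in these comparisons, beside -0.00, 0.00, 0.01 and 0.00 over all named genes. With ivermectin against uninjured 2 were higher and 1 lower, against 7.39% of named genes. The genes are described by role.

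**Figure D4:**
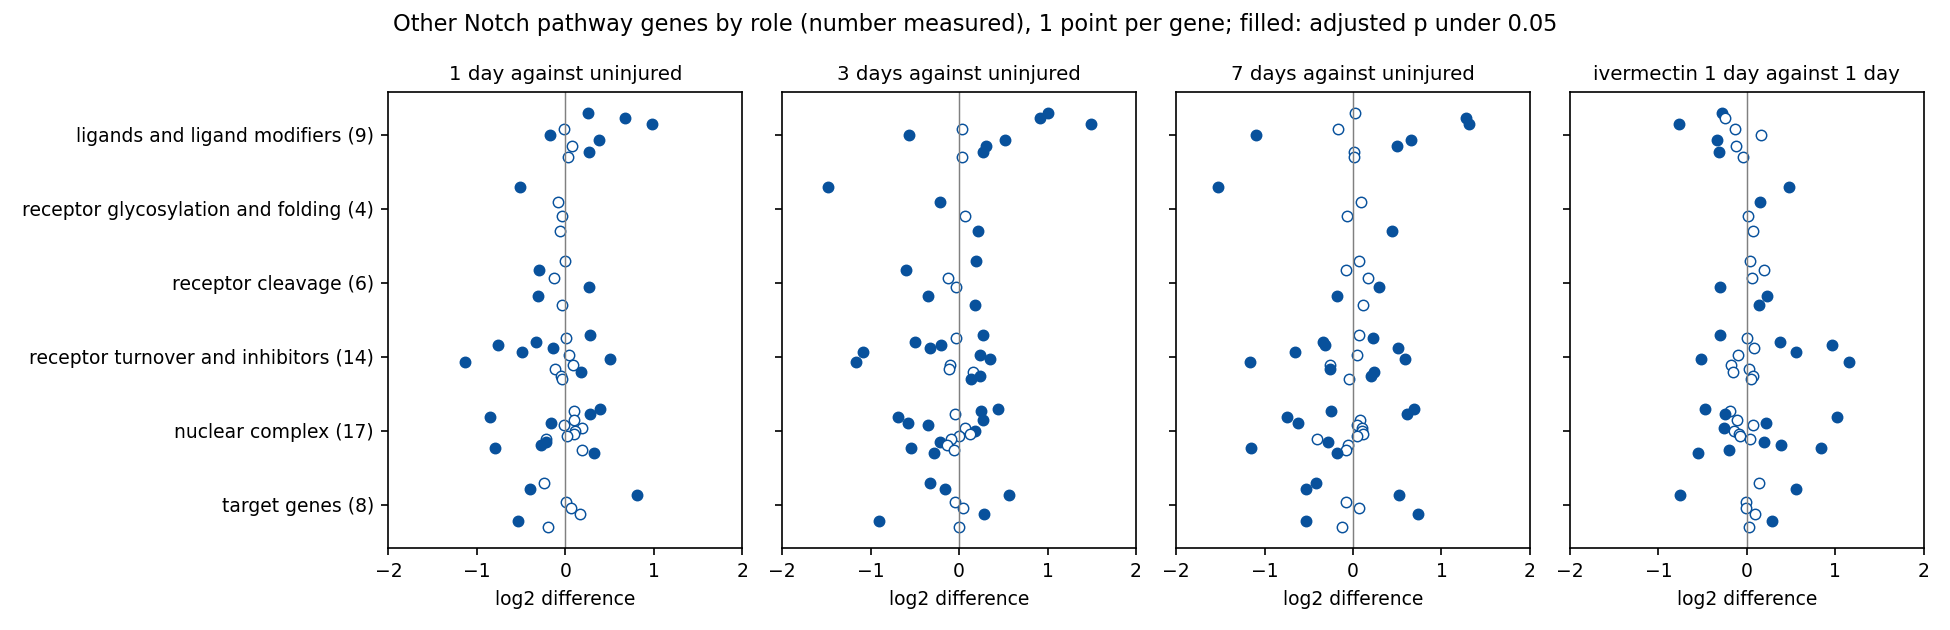
Log2 difference (horizontal axes) of the 58 measured genes of the wider pathway, 1 point per gene, by role and comparison, filled where the adjusted p is under 0.05. Points lie on both sides of 0 in most roles. Among 9 ligands and ligand modifiers, 5 rose and 1 fell at 1 day. With ivermectin against 1 day, 0 of them were higher and 4 lower (limma). Of all named genes, 55.6% and 57.5% were called in these comparisons.

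Of 9 measured ligands and ligand modifiers, 5 rose and 1 fell at 1 day, 6 rose and 1 fell at 3 days, and 4 rose and 1 fell at 7 days. In the limma fit 0 were higher and 4 lower with ivermectin than at 1 day. DNER, a neuronal transmembrane protein that can act as a Notch ligand, rose by 0.98 ± 0.06 at 1 day, 1.49 at 3 days and 1.32 at 7 days, and differed by -0.76 with ivermectin against 1 day. DLK1, an atypical ligand that lacks the Delta domain of DLL1, rose by 0.67 ± 0.11, 0.92 and 1.28. CNTN1, a contactin of axons, rose by 1.00 ± 0.08 at 3 days but differed by 0.02 at 7 days (adjusted p = 0.859). That probe set was dim, at 4.92 at 3 days against 3.91 in uninjured arrays, and the other CNTN1 probe set rose by 0.21 ± 0.07 at 3 days (adjusted p = 0.0190). EPN3, an epsin for endocytosis of ligands, differed by -0.17 ± 0.07 at 1 day, -0.57 at 3 days and -1.09 at 7 days. MIB1, the ubiquitin ligase that makes ligands active, rose by 0.39 ± 0.06, 0.52 and 0.66, and was lower with ivermectin than at 1 day by a difference of -0.34.

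Of 4 measured genes for receptor glycosylation and folding, 0 rose and 1 fell at 1 day (limma). At 3 days 1 rose and 2 fell, at 7 days 1 rose and 1 fell, and with ivermectin against 1 day 2 were higher and 0 lower. LFNG, a Fringe enzyme that adds a sugar to the receptor, was chosen after its values were seen because its probe sets differ. The brighter one, which the counts use, differed by -0.09 ± 0.05 at 1 day (adjusted p = 0.196), and by -0.21 at 3 days and 0.15 with ivermectin against 1 day, both called. The dimmer one, at 4.27 at 1 day against 5.34 in uninjured arrays, differed by -1.08 ± 0.12 at 1 day (adjusted p = 2.79e-06), -1.25 at 3 days and -0.38 at 7 days, and by 0.87 with ivermectin against 1 day, all called. B4GALT1, a galactosyltransferase that extends Notch sugars, differed by -0.51 ± 0.06 at 1 day, -1.48 at 3 days and -1.53 at 7 days in its brighter probe set. Its other probe set went the opposite way at 3 days (0.32 ± 0.10) and 7 days (0.26 ± 0.10), both called, so the gene's direction is uncertain. Of 6 genes for receptor cleavage, 1 rose and 2 fell at 1 day, 2 rose and 2 fell at 3 days, and 1 rose and 1 fell at 7 days, and 2 were higher and 1 lower with ivermectin against 1 day. ADAM17, a protease that cuts the receptor outside the membrane, differed by -0.60 at 3 days in its brighter probe set, the largest called difference in that role across these comparisons when each gene is represented by its brightest probe set. NCSTN, a subunit of the gamma-secretase that cuts the receptor in the membrane, differed by -0.31 ± 0.06 with ivermectin against 1 day in its brighter probe set and by 0.65 ± 0.08 in a dim one (4.41 with ivermectin against 3.76 at 1 day), both called, so its direction is uncertain. ADAM17 and NCSTN were chosen after their values were seen.

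Of 14 genes for receptor turnover and inhibition, 3 rose and 5 fell at 1 day, 5 rose and 5 fell at 3 days, and 5 rose and 5 fell at 7 days. FBXW7, the ubiquitin ligase subunit that marks the cleaved receptor for destruction, differed by -1.13 ± 0.07 at 1 day (2.19-fold lower, adjusted p = 2.10e-09), -1.17 at 3 days and -1.17 at 7 days. With ivermectin it was 1.15 higher than at 1 day and 0.02 from uninjured (adjusted p = 0.925). CDK8, a kinase that phosphorylates the cleaved receptor ahead of its turnover, differed by -0.76 ± 0.07, -0.21 and -0.32, and by 0.96 with ivermectin against 1 day. DTX3L, a deltex ubiquitin ligase, differed by -0.49 ± 0.08, -1.08 and -0.65. In the ivermectin group 4 genes of this role were higher and 2 lower than at 1 day.

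Of 17 genes of the nuclear complex, 3 rose and 5 fell at 1 day, 4 rose and 6 fell at 3 days, and 2 rose and 6 fell at 7 days, and 5 were higher and 5 lower with ivermectin against 1 day. RBPJ, the DNA-binding partner of the cleaved receptor, differed by -0.22 ± 0.07 at 1 day (adjusted p = 0.0193), -0.22 at 3 days and -0.28 at 7 days, less than poly-A control RNA in size. CTBP2, a corepressor, differed by -0.85 ± 0.12, -0.69 and -0.75 and by 1.01 with ivermectin against 1 day, at a low level of 3.27 at 1 day against 4.12 in uninjured arrays. SPEN, a corepressor that binds RBPJ, differed by -0.79 ± 0.05, -0.54 and -1.16 in its brightest probe set. Of its 29 probe sets, 3 were higher and 17 lower at 1 day, 6 higher and 12 lower at 3 days and 6 higher and 14 lower at 7 days.

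Of 8 other target genes, 1 rose and 2 fell at 1 day, 2 rose and 3 fell at 3 days and 2 rose and 3 fell at 7 days. With ivermectin against 1 day 2 were higher and 1 lower. FABP7, a fatty acid binding protein of radial glia, rose by 0.81 ± 0.11 at 1 day, 0.57 at 3 days and 0.51 at 7 days and differed by -0.75 with ivermectin against 1 day. HEY2, a close relative of HEY1, was chosen after its values were seen, as was RBPJ. It rose by 0.28 ± 0.08 at 3 days (adjusted p = 0.00624) and 0.73 ± 0.08 at 7 days (adjusted p = 1.09e-06) and differed by 0.17 ± 0.08 at 1 day (adjusted p = 0.0858). With ivermectin against 1 day HEY2 differed by 0.09 ± 0.08 (adjusted p = 0.340).

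Of 5 measured proneural and early neuronal genes, which active Notch signalling is known to keep low in progenitors, 2 rose and 1 fell at 1 day, 1 rose and 1 fell at 3 days and 2 rose and 1 fell at 7 days, and 1 was higher and 3 lower with ivermectin against 1 day. INSM1, a factor of newborn neurons, differed by -0.94 ± 0.10, -1.12 and -0.90, and by 1.04 with ivermectin against 1 day. Its levels were low, at 3.60, 3.43 and 3.64 in these injured groups against 4.54 in uninjured arrays. TUBB3, a neuronal tubulin, rose by 0.75 ± 0.06, 0.91 and 1.18. HEY1 is also known to be induced by BMP, whose part in the changes of HEY1 was not tested. Of all named genes 55.6%, 61.9% and 60.3% were called at 1, 3 and 7 days. Of 6 measured BMP and TGF-beta target genes, counted together, 2 rose and 1 fell at 1 day, 2 rose and 2 fell at 3 days and 1 rose and 4 fell at 7 days. With ivermectin against 1 day 1 was higher and 4 lower. ID3, a helix-loop-helix inhibitor that BMP induces, differed by -0.77 ± 0.08, -1.43 and -0.69, and by 0.98 with ivermectin against 1 day. Its relative ID2 differed by -0.19 ± 0.08 at 1 day (adjusted p = 0.0604), -1.28 at 3 days and -0.99 at 7 days. SKIL, which TGF-beta induces, differed by 0.47 ± 0.06 at 1 day and by -0.59 with ivermectin against 1 day.

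Over the 15 arrays, the named genes most like HEY1 by Pearson's r were CCDC80 (0.991), BASP1 (0.990), MGAT4B (0.988), FOXC1 (0.988), MLF2 (0.987) and AP1S2 (0.985). The arrays of a group share their treatment, so r mainly reflects the 5 group means, and 6.92% of 8638 named genes had an r above 0.9 with HEY1. CCDC80, a secreted matrix protein, averaged 8.74 with ivermectin and 8.77 in uninjured arrays, then 9.58 at 1 day, 9.82 at 3 days and 10.42 at 7 days. FOXC1, a forkhead factor of mesenchyme and vessel walls, averaged 6.02 with ivermectin and 5.82 in uninjured arrays, then 7.24, 7.73 and 8.49. BASP1, MGAT4B, MLF2 and AP1S2 averaged 11.40, 7.30, 7.06 and 8.83 in uninjured arrays and 12.30, 7.87, 7.81 and 10.09 at 7 days. Within the pathway MIB1 (0.972), CIR1 (0.968), a corepressor that binds RBPJ, and EGFL7 (0.944), a secreted endothelial protein that can bind Notch, were most like HEY1. SPEN (-0.967), FBXW7 (-0.926) and CCND1 (-0.902), the cyclin D1 gene, were least like HEY1. The value of SPEN is that of the brightest of its 29 probe sets, which did not all change in 1 direction. Among the members r was 0.757 for JAG1, 0.729 for NOTCH1 axo16095-r_at, -0.130 for JAG2, -0.369 for DLL1 and -0.724 for HES1.

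Markers of several cell types were followed in the same comparisons as HEY1. Of all named genes, 55.6% were called at 1 day, 61.9% at 3 days, 60.3% at 7 days and 57.5% with ivermectin against 1 day. Counts of called markers near these shares are no result about a cell type. The mean over 15 endothelial and mural genes lay between 6.18 and 6.20 in ivermectin arrays, and between 6.20 and 6.23 in uninjured, 6.42 and 6.44 in 1 day, 6.54 and 6.61 in 3 day and 6.65 and 6.71 in 7 day arrays. Of these genes 5 rose and 2 fell at 1 day, 6 rose and 0 fell at 3 days (limma) and 8 rose and 2 fell at 7 days. TAGLN, an actin-binding protein of smooth muscle, rose by 2.22 ± 0.06, 3.13 and 3.56 and carried much of the list's mean. The mean difference from uninjured was 0.21, 0.35 and 0.45 with it and 0.06, 0.15 and 0.23 over the other 14 genes, and the list's median was 0.08, 0.10 and 0.24. The endothelial genes CDH5, PECAM1 and KDR, chosen after their values were seen, differed by -0.37 ± 0.13, -0.30 ± 0.09 and 0.04 ± 0.05 at 1 day. These genes are given at 1 day only, when 8 of the 15 genes of the list were not called. EGFL7, MYH11 and VWF were named because their called changes were among the largest of the list at the time given. EGFL7 differed by 0.50 ± 0.07 at 1 day and by -0.52 with ivermectin against 1 day. MYH11 rose by 0.95 at 3 days and VWF by 0.68 at 7 days. With ivermectin against 1 day 2 genes of this list were higher and 5 lower.

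All 15 skeletal muscle genes measured rose at 1 day, with a mean of 11.93 to 11.95 in 1 day arrays against 10.64 to 10.69 in uninjured arrays. Their median difference was 0.70, and the largest rises were those of MYBPC1 (3.63) and ACTN2 (3.46). At 3 days 14 rose and 1 fell, at 7 days 14 rose and 0 fell (limma), and with ivermectin 14 were lower than at 1 day. Of 9 ependymoglial genes 5 rose and 0 fell at 1 day, 4 rose and 2 fell at 3 days, and 7 rose and 0 fell at 7 days (limma), with median differences of 0.42, 0.06 and 0.84. With ivermectin 1 of them was higher and 6 were lower than at 1 day. Of 12 neuronal genes 9 rose and 0 fell at 1 day, 11 rose and 1 fell at 3 days, and 9 rose and 0 fell at 7 days (limma), while 1 was higher and 8 were lower with ivermectin than at 1 day. Of 9 meningeal or fibroblast genes 5 rose and 2 fell at 1 day, 4 rose and 1 fell at 3 days and 6 rose and 1 fell at 7 days, and 1 was higher and 6 were lower with ivermectin than at 1 day.

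All 5 red cell genes measured rose at 1 and 3 days, 3 rose and 2 fell at 7 days, and all 5 were lower with ivermectin than at 1 day. Of 10 macrophage genes 2 rose and 4 fell at 1 day, 3 rose and 5 fell at 3 days and 5 rose and 2 fell at 7 days, and 4 were higher and 2 lower with ivermectin than at 1 day. Of 7 epidermal genes 1 rose and 2 fell at 1 day, and all 7 fell at 3 and at 7 days, with medians of -1.32 and -1.26. With ivermectin 2 epidermal genes were higher and 2 lower than at 1 day. Of 2 oligodendrocyte genes 1 rose and 1 fell at 1 day and at 3 days, both fell at 7 days, and 1 was higher and 1 lower with ivermectin than at 1 day. The part of cell mixture in the changes of HEY1 and the other members was not tested.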

How the data were processed

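Per the labels and the submitters' processing notes, total RNA from pooled cord tissue was labelled with a 3' in vitro transcription kit and hybridised to a custom Affymetrix axolotl array, and the authors deposited log2 values per probe set made by RMA in Affymetrix Expression Console, used as deposited. RMA corrects background, equalises the distributions of arrays by quantiles and summarises probes, so a shift shared by most genes would be removed. Versions are not given in the sources used here. Of 20080 probe sets 45 controls were set aside. A symbol was given for 10951 probe sets (8639 genes, each represented in lists by its probe set with the highest mean) and 9084 had none. Symbols are those of the platform annotation. No array pair was identical. Arrays have no count depth, and 3 arrays per group limit the precision.

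A model with 1 mean per group was fitted with limma 3.58.1 in R 4.3.3 (lmFit, eBayes, 10 residual and 4.26 prior degrees of freedom), tested 2-sided in 7 comparisons, plus 3 used to order HEY1, with Benjamini-Hochberg adjustment over 20035 probe sets. Of those 3, 7 days against 1 day is also given for HES1 and not for the other members. The fit was run on simulated arrays with independent noise, in which few probe sets were shifted and only in the 1 day group. Far more probe sets were called in the real arrays, so that run gives no error rate for these data. Alternatives were a replicate block, the compared groups alone, an intensity trend, cyclic loess, median centring, the dimmest 25% left out, a log2 difference of at least 1, array weights and each array left out. Same-numbered arrays did not deviate together (30 pairs, r -0.225 to 0.231), so replicate numbers were not treated as pairs. HEY1 minus HES1 within arrays is described with no test.

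All member probe sets are named in each of the 7 comparisons, with up to 6 called genes of the largest change from the wider pathway list per main comparison (1, 3 and 7 days against uninjured, ivermectin against 1 day). Up to 2 are named from the endothelial and mural, skeletal muscle, proneural, and BMP and TGF-beta lists. The other cell type lists are described as lists, without genes picked by size of change. The 6 genes most correlated with HEY1 and the 3 pathway genes most and least so are also named. The members, lists and tests were chosen with earlier results of these data known. Plots used matplotlib 3.10.9 under Python 3.11.15.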

Additional observations from a re-analysis of the deposited data

Results flagged for a closer look

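The poly-A control RNA, a spike-in that no comparison of genes uses, was higher than in uninjured arrays in every injured group without ivermectin, by 0.546 at 1 day, 0.789 at 3 days and 0.400 at 7 days on the log2 scale (mean of 24 control probe sets). These are signals outside the main measurement that exceed the level in the uninjured arrays.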

How the results depend on the processing

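HEY1 kept its direction and its side of the threshold in all 21 or 22 alternatives without a size limit, with 0.98 to 1.10 at 1 day, 1.06 to 1.19 at 3 days and 1.67 to 1.79 at 7 days against uninjured, and -1.03 to -0.92 with ivermectin against 1 day. Many of these settings leave the difference itself unchanged, so its direction could not move in them. They are the replicate block, the compared groups alone, the intensity trend, the dimmest probe sets left out and an array of another group left out. A replicate block changed the calls of NOTCH1 axo16095-r_at with ivermectin against uninjured and of NOTCH1 axo16090-f_at at 3 days against uninjured and no other call of a member, and gave 25 wider pathway genes at 1 day, against 29 without it. Requiring a log2 difference of at least 1 as well removes smaller changes by construction. It ended the calls of HEY1 with ivermectin against 1 day (-0.96), at 7 against 3 days (0.61) and at 7 against 1 day (0.70). Members left against uninjured numbered 1 at 1 day, 3 at 3 days, 2 at 7 days and 0 with ivermectin. Against 1 day they numbered 0 with ivermectin and 1 at 3 days, and at 7 against 3 days 0. The share of all probe sets that pass this rule was not computed, so these counts are no result about the members. Members called with ivermectin against uninjured numbered 0 with the replicate block, 0 in the fit of these groups alone and 0 to 1 with an array left out. The share of all probe sets called was 6.95% in the main fit and is not given for these settings, so these counts are no result about the members either. Reversals concerned differences near 0 that were not called. They were NOTCH1 axo16095-r_at at 7 against 3 days under cyclic loess (-0.014) and JAG2 at 7 days against uninjured under median centring (0.035). With an array left out the ranges were -0.085 to 0.042 for JAG2 at 7 days against uninjured, -0.0026 to 0.13 for JAG2 at 7 against 3 days, -0.077 to 0.052 for DLL1 with ivermectin against uninjured and -0.060 to 0.0037 for JAG1 with ivermectin against 1 day. For NOTCH1 axo16090-f_at they were -0.0498 to 0.014 with ivermectin against 1 day and -0.0049 to 0.068 with ivermectin against uninjured. HEY2 at 1 day against uninjured passed the threshold under cyclic loess, median centring and without 1 day replicate 2. The causes were not tested.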
